A study of Mus musculus with 90 samples.

Results

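The comparison is the change in liver RNA between ZT12, the hour of lights-off, and ZT16, 4 h into the dark phase, in WT mice on the control diet. Its libraries were taken by their titles (night-restricted feeding, WT, ZT12 or ZT16, replicates 1 to 4), which gave 8 of the 90 libraries of the series, with 4 livers at each time. The study measured liver RNA over the day in mice with and without the glucocorticoid receptor in hepatocytes, on a control diet or under caloric restriction. The 8 mice were single-housed C57BL/6J males that carried floxed alleles of the receptor gene *Nr3c1* (GRfl/fl) and no Cre, so that WT stands for a floxed but intact receptor. From 12 weeks of age they were kept on an 8-week protocol on chow and were killed at its end. They ate ad libitum until the last week and then had food only in the dark phase, from ZT12 to ZT0. A ZT12 liver therefore came from a mouse at the end of the daily hours without food, and a ZT16 liver from a mouse with access to food for 4 h. Beside them stand GR LKO mice (GRfl/fl x Alb-Cre, the same strain, diet and protocol, n = 4 at ZT12 and n = 3 at ZT16), in which Cre driven by the albumin promoter deletes the receptor in hepatocytes while other liver cells keep it. The other group is WT mice under caloric restriction (cal. res., GRfl/fl, the same strain and protocol, n = 3 at each time), whose ration was lowered in steps and handed out at ZT12.

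The liver anticipates and follows the daily alternation of rest and feeding. A molecular clock in each hepatocyte runs on activators (BMAL1 and CLOCK) and on repressors that they induce (the PER and CRY proteins and the REV-ERBs), while insulin, nutrients, body temperature and glucocorticoids act on many of the same genes from outside the cell. In nocturnal mice the peak of corticosterone, the onset of darkness and the return of food all fall at the start of the night, and in this design the effects of lights-off, feeding and the decline of corticosterone cannot be told apart.

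The libraries were liver by their markers. Albumin and 6 other hepatocyte genes summed to 88173, 103815, 86437 and 95187 CPM at ZT12 and 99034, 102976, 98908 and 94896 CPM at ZT16, with *Alb* the most abundant. Of these 7 genes, 0 were called by edgeR or DESeq2 and 1 had an unadjusted p under 0.05. Here and throughout, levels are counts relative to the library's size after TMM scaling (CPM), in the order of replicates 1 to 4. The ZT12 libraries held 11408194 to 14544579 counts (median 13134132) and the ZT16 libraries 13699308 to 17089004 (median 15125722), and the 10 most abundant genes took 18.7% to 19.9% and 19.1% to 19.8% of them. On the leading principal component, which held 30.9% of the variance of log2 CPM, the ZT12 livers lay at -15.7, -25.4, -31.2 and -34.6 and the ZT16 livers at 24.9, 20.7, 31 and 30.2, so that the times were apart with no overlap. ZT16 replicate 2 stood out in another way: 10 genes of the exocrine pancreas summed to 0.92, 2.68, 0.941 and 1.4 CPM at ZT12 and 0.478, 771, 4.72 and 0.425 CPM at ZT16, with *Amy2a5* the most abundant. Of these 10 genes 0 passed the filter for testing. The part of these transcripts in the results was not tested further than by repeating each gene list's count without that library, an analysis added after the data were seen.

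A large share of the liver transcriptome differed between the times. Of 11452 genes tested, 1540 (13.4%) were called at a Benjamini-Hochberg adjusted p under 0.05 in edgeR's quasi-likelihood F test, 784 higher (6.85%) and 756 lower (6.6%) at ZT16. The counts of list members called, given below, stand beside these shares. Unless another group is named, every adjusted p below for a single gene comes from this test, every fold change is ZT16 over ZT12 on the log2 scale, ± is its standard error, and n is 4 livers at each time. The median change was -0.0076 over all genes tested and 0.546 in size over the called genes, and 266 called genes changed by more than 2-fold, 168 of them upward and 98 downward. In 2437 genes (21.3%) the values of the times did not overlap. The count was smaller without any 1 of the 8 libraries, from 875 without ZT16 replicate 4 to 1384 without ZT12 replicate 1. It was 967 without ZT16 replicate 3, 1024 without ZT16 replicate 1 and 1038 without ZT12 replicate 3. Scaling by library totals alone made 64.5% of the calls higher instead of 50.9%.

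The position of these genes in the whole day was read from the 22 WT control-diet livers at 6 time points. Of the 784 genes higher at ZT16, 338 (43.1%) had their highest mean at ZT16, 166 (21.2%) at ZT20 and 191 (24.4%) at ZT0, and 423 (54%) had their lowest mean at ZT12. Of the 756 lower genes, 434 (57.4%) had their highest mean at ZT12 and 274 (36.2%) at ZT8, while 280 (37%) were lowest at ZT16 and 242 (32%) at ZT0. Of all genes tested, 24.2% were highest at ZT12 and 16.5% at ZT16. The ZT12 and ZT16 libraries that made the calls are among those of this ordering, so the shares describe the genes and test nothing.

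The clock genes moved in both directions. Of 21 clock genes tested, 5 were called higher and 7 lower (the same numbers without ZT16 replicate 2), with a median change of -0.023 beside -0.0076 for all genes. *Arntl*, which encodes the activator BMAL1, had 0, 0.372, 1.33 and 0.932 CPM at ZT12 and 10.6, 12.2, 12.4 and 10.7 CPM at ZT16 (log2 fold change 4.07 ± 0.51, adjusted p = 0.00225). It was close to 0 in every ZT12 liver and above 10 CPM in every ZT16 liver, with the highest daily mean later, 29.1 CPM at ZT0. Its partner *Clock* had 0, 2.9, 0 and 0 CPM at ZT12 and 9.74, 15.7, 4.06 and 6.16 CPM at ZT16 (log2 fold change 3.55 ± 1.05, adjusted p = 0.0571). Of the ZT12 livers only replicate 2 held *Clock* counts, and without that liver the ZT12 values are all 0, so nothing is read from that fit. *Clock* was called in the fit of all control-diet libraries (adjusted p = 0.0282) and with the replicate block (0.0414), but not with DESeq2 (0.227), with the other scalings and filters (0.0503 to 0.078) or without any of the other 7 libraries (0.0738 to 0.139).

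Several repressors and output genes of the clock fell. *Dbp*, an output transcription factor of the PAR bZIP family, had 51.4, 48.2, 81.2 and 62.7 CPM at ZT12 and 8.19, 12.4, 8.12 and 8.29 CPM at ZT16 (log2 fold change -2.71 ± 0.21, adjusted p = 0.000534). Its relative *Tef* had 270.3, 276, 282 and 281 CPM at ZT12 and 175, 169.9, 153 and 153 CPM at ZT16 (log2 fold change -0.77 ± 0.062, adjusted p = 0.000791). All ZT12 livers lay above all ZT16 livers for both genes, and within ZT16 replicate 2 kept the highest *Dbp* value. *Nr1d1*, which encodes the repressor REV-ERBα, had 43.2, 21.9, 31.4 and 29.8 CPM at ZT12 and 7.41, 12, 9.07 and 8.36 CPM at ZT16 (log2 fold change -1.77 ± 0.22, adjusted p = 0.00225). Its daily mean had already fallen from 159 CPM at ZT8 to 31.6 CPM at ZT12, and *Nr1d2*, the REV-ERBβ gene, went from 134 CPM at ZT8 through 103 CPM at ZT12 to 49.6 CPM at ZT16 (log2 fold change -1.05 ± 0.13, adjusted p = 0.0022 for the last step). *Ciart*, which encodes a further repressor of the BMAL1 complex, had 39.9, 29.7, 37.6 and 41 CPM at ZT12 and 11.4, 11.7, 10 and 9.21 CPM at ZT16 (log2 fold change -1.8 ± 0.12, adjusted p = 0.000366). Its livers were tightly grouped at each time and did not overlap.

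The *Per* genes did not share a direction. *Per1* had 69.4, 62.9, 57.3 and 90.2 CPM at ZT12 and 27.2, 38, 37.6 and 31.6 CPM at ZT16 (log2 fold change -1.06 ± 0.16, adjusted p = 0.00458). *Per3* had 63.7, 57.5, 62.7 and 68.1 CPM at ZT12 and 36.1, 41.2, 37 and 36 CPM at ZT16 (log2 fold change -0.74 ± 0.073, adjusted p = 0.00154), and both were lower in every ZT16 liver. *Per2* had 60.7, 75.8, 61.8 and 63.9 CPM at ZT12 and 107, 73.6, 114 and 100 CPM at ZT16 (log2 fold change 0.59 ± 0.14, adjusted p = 0.0233). The times overlapped for *Per2*, since ZT16 replicate 2 lay below ZT12 replicate 2, and its call was lost without any library other than ZT12 replicate 2 and ZT16 replicate 2 (adjusted p from 0.0539 to 0.0641). It was also lost in the fit of all control-diet libraries (adjusted p = 0.203) and with the replicate block (adjusted p = 0.0816). *Cry1*, which encodes a late repressor, had 15, 16.2, 9.96 and 11.8 CPM at ZT12 and 31.7, 34.5, 29.4 and 33.3 CPM at ZT16 (log2 fold change 1.28 ± 0.14, adjusted p = 0.00186), with a further daily mean of 44.9 CPM at ZT20. *Nfil3*, a repressor at the sites that DBP activates, had 18.1, 14.3, 12.2 and 15.4 CPM at ZT12 and 23.1, 25.5, 30.4 and 28.7 CPM at ZT16 (log2 fold change 0.84 ± 0.13, adjusted p = 0.00555). For *Cry1* and *Nfil3* every ZT16 liver was above every ZT12 liver.

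**Figure D1:**
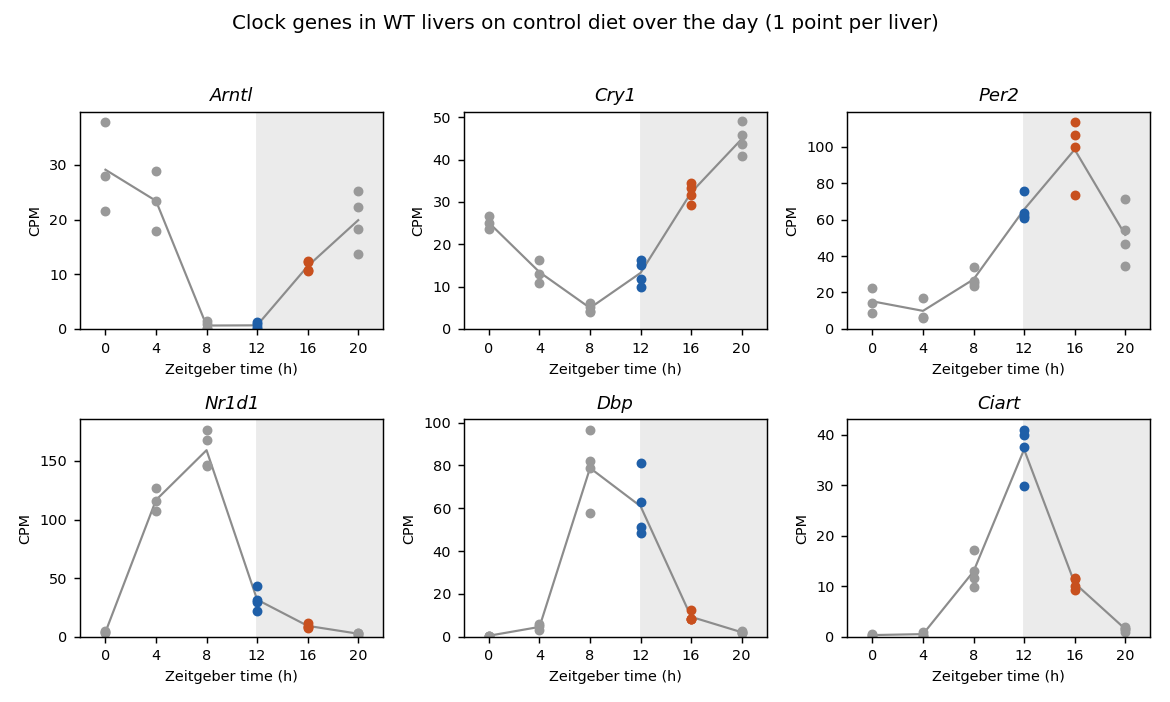
CPM of 6 clock genes (vertical axis) against Zeitgeber time in hours (horizontal axis), with a point for each WT control-diet liver and a line through the means, ZT12 in blue, ZT16 in orange and the dark phase shaded grey. *Arntl* and *Cry1* were higher in all 4 ZT16 livers than in the 4 ZT12 livers, while *Nr1d1*, *Dbp* and *Ciart* were lower.

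Several genes of the fasting liver fell. Gluconeogenesis and glucose output had 1 gene higher and 4 lower of 13 tested (1 and 5 without ZT16 replicate 2, which adds *Klf15*), with a median of -0.106. *Pck1*, the enzyme that commits oxaloacetate to glucose synthesis, had 4121, 4219, 4399 and 4320.4 CPM at ZT12 and 977, 2314, 848 and 1598 CPM at ZT16 (log2 fold change -1.57 ± 0.28, adjusted p = 0.00943). The ZT12 livers were within a narrow band, while the ZT16 livers spread more widely below it, with replicate 2 highest. *Ppargc1a*, a coactivator of the fasting response, had 10.5, 10.8, 13.2 and 21.8 CPM at ZT12 and 6.04, 5.36, 4.87 and 5.74 CPM at ZT16 (log2 fold change -1.35 ± 0.23, adjusted p = 0.00816), highest in ZT12 replicate 4. *Crtc2*, the coactivator of CREB, also fell without overlap (log2 fold change -0.39 ± 0.058, adjusted p = 0.00458). So did *Aqp9*, the glycerol channel of hepatocytes (log2 fold change -0.56 ± 0.092, adjusted p = 0.0066). *G6pc*, the last enzyme of glucose release, was not called, at 169 to 349.6 CPM at ZT12 and 220.2 to 357 CPM at ZT16 (log2 fold change 0.033 ± 0.23). The gene of this list that rose was *Pdk4*, the kinase that holds back pyruvate oxidation, at 4.79, 1.64, 1.33 and 1.17 CPM at ZT12 and 12.6, 13.7, 5.98 and 12 CPM at ZT16 (log2 fold change 2.34 ± 0.45, adjusted p = 0.012). Its ZT12 values were low in every liver and highest in replicate 1, and the daily mean went on to 30.1 CPM at ZT20.

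Of 19 genes of insulin signalling tested, 3 were called, each lower (2 without ZT16 replicate 2), with a median of -0.179. Over all genes 6.6% were called lower and 13.4% in all. *Foxo1*, the transcription factor that insulin holds out of the nucleus, had 54.7, 50.8, 49.4 and 49.5 CPM at ZT12 and 29.2, 39.7, 31.8 and 36.6 CPM at ZT16 (log2 fold change -0.57 ± 0.098, adjusted p = 0.00772). *Trib3*, an inhibitor of the kinase AKT, had 7.82, 4.76, 4.63 and 3.96 CPM at ZT12 and 2.27, 1.7, 1.11 and 2.55 CPM at ZT16 (log2 fold change -1.46 ± 0.31, adjusted p = 0.0165), and both genes were lower in every ZT16 liver. *Grb14*, an adaptor that damps the insulin receptor, had 44.5 to 52.1 CPM at ZT12 and 37.8 to 42.8 CPM at ZT16 (log2 fold change -0.26 ± 0.066, adjusted p = 0.0332) and lost its call without any library other than ZT12 replicate 1 and ZT16 replicate 4 (adjusted p from 0.0637 to 0.0951). *Irs2*, the receptor substrate, had 13.2 to 26.3 CPM at ZT12 and 8.49 to 13.7 CPM at ZT16 and was not called (log2 fold change -0.64 ± 0.23, adjusted p = 0.0925), except by DESeq2 (adjusted p = 0.0486). *Igfbp1*, which encodes a secreted IGF-binding protein, had 5.8 to 31.9 CPM at ZT12 and 6.87 to 17.2 CPM at ZT16 and was not called (log2 fold change -0.64 ± 0.5, adjusted p = 0.431).

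Glucose uptake, glycolysis and glycogen had 2 genes higher and 5 lower of 21 tested (2 and 4 without ZT16 replicate 2), with a median of 0.0050. *Ppp1r3c*, a subunit that directs protein phosphatase to glycogen, had 31.8, 29.6, 21.8 and 27.7 CPM at ZT12 and 82.1, 78.5, 35 and 82.5 CPM at ZT16 (log2 fold change 1.33 ± 0.26, adjusted p = 0.0118), with ZT16 replicate 3 far below the other ZT16 livers and yet above all ZT12 livers. *Gys2*, the glycogen synthase of liver, had 362 to 437 CPM at ZT12 and 288 to 309 CPM at ZT16 (log2 fold change -0.42 ± 0.07, adjusted p = 0.00679). *Phka2*, a subunit of the kinase that activates glycogen breakdown, had 27 to 30.1 CPM at ZT12 and 15.1 to 19.8 CPM at ZT16 (log2 fold change -0.73 ± 0.098, adjusted p = 0.00315). *Pfkfb2*, which sets the level of a glycolytic regulator, fell as well (log2 fold change -1.02 ± 0.2, adjusted p = 0.0135). Of the other lower genes, the glucose transporter *Slc2a2* lost its call without any library other than ZT12 replicate 3 and ZT16 replicate 1 (adjusted p from 0.0517 to 0.0759) and *Ugp2*, which makes UDP-glucose, without ZT16 replicates 3 or 4 (adjusted p from 0.0527 to 0.0541).

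Fat synthesis was called in both directions. The list of lipogenesis and triglyceride synthesis had 6 genes higher and 4 lower of 22 tested (4 and 3 without ZT16 replicate 2), with a median of 0.308. *Fasn*, the fatty acid synthase, had 263, 342, 133 and 199.6 CPM at ZT12 and 738, 469, 529 and 460.2 CPM at ZT16 (log2 fold change 1.23 ± 0.27, adjusted p = 0.0205). *Agpat2*, an acyltransferase of triglyceride assembly, had 194, 162, 140.3 and 126 CPM at ZT12 and 305, 242, 272 and 252 CPM at ZT16 (log2 fold change 0.78 ± 0.13, adjusted p = 0.00772). Every ZT16 liver was above every ZT12 liver for both genes, and the *Fasn* call was lost without ZT12 replicate 4 or ZT16 replicate 1 (adjusted p from 0.0526 to 0.0554). *Elovl6*, which lengthens new fatty acids, had 99.3 to 214 CPM at ZT12 and 227 to 372 CPM at ZT16 (log2 fold change 1.02 ± 0.23, adjusted p = 0.0219) and lost the call without any library other than ZT12 replicates 1 and 3 and ZT16 replicate 4 (adjusted p from 0.05005 to 0.0551). *Acly*, which supplies cytosolic acetyl-CoA (log2 fold change 0.66 ± 0.15, adjusted p = 0.0225), lost its call without ZT12 replicate 4 or ZT16 replicates 1 or 3 (adjusted p from 0.0534 to 0.0574) and in the fit of all control-diet libraries (adjusted p = 0.0967). *Acacb*, the carboxylase at mitochondria (log2 fold change 1.24 ± 0.35, adjusted p = 0.0498), lost its call without any library other than ZT12 replicate 1 (adjusted p from 0.0663 to 0.114). *Srebf1*, which encodes the lipogenic factor SREBP1, had 259.9 to 531 CPM at ZT12 and 502 to 783 CPM at ZT16 and was not called (log2 fold change 0.58 ± 0.24, adjusted p = 0.144). The desaturase *Scd1* had 3462 to 8425 CPM at ZT12 and 6431 to 10890.3 CPM at ZT16 and was not called (log2 fold change 0.5 ± 0.26, adjusted p = 0.236). Both were called with the replicate block (adjusted p = 0.0262 for *Srebf1* and 0.0364 for *Scd1*) and in no other setting. Of the others, *Pgd*, which makes NADPH, rose (log2 fold change 0.3 ± 0.067, adjusted p = 0.0213) but lost its call without ZT16 replicates 1 or 4 (adjusted p from 0.0588 to 0.059). The desaturase *Fads2* (log2 fold change -0.29 ± 0.067, adjusted p = 0.0235) lost its call without any library other than ZT12 replicates 1 and 2 and ZT16 replicate 2 (adjusted p from 0.051 to 0.0599), and the citrate carrier *Slc25a1* (log2 fold change -0.21 ± 0.055, adjusted p = 0.0385) without any library other than ZT16 replicate 1 (adjusted p from 0.0568 to 0.111).

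*Lpin1*, a phosphatidate phosphatase that also acts as a coactivator in fasting, was among the steepest falls. It had 169, 264, 318 and 442 CPM at ZT12 and 29, 25.5, 104 and 19.9 CPM at ZT16 (log2 fold change -2.74 ± 0.55, adjusted p = 0.0139). ZT16 replicate 3 kept several times the level of the other ZT16 livers but lay below all ZT12 livers, and the daily means rose from 7.49 CPM at ZT4 to 298 CPM at ZT12 before they came down to 9.29 CPM at ZT20. Its relative *Lpin2* had 470.2, 489, 394 and 467 CPM at ZT12 and 263, 309, 254 and 258 CPM at ZT16 (log2 fold change -0.75 ± 0.091, adjusted p = 0.0022). *Angptl8*, which encodes a secreted inhibitor of lipoprotein lipase known to be induced by feeding, had 24.6, 11.6, 22.9 and 32.4 CPM at ZT12 and 105, 173, 97.1 and 145 CPM at ZT16 (log2 fold change 2.51 ± 0.3, adjusted p = 0.00217). *Elovl3*, an elongase of very long fatty acids, had 15, 8.7, 3.37 and 10.2 CPM at ZT12 and 115, 63.2, 20.4 and 73.6 CPM at ZT16 (log2 fold change 2.88 ± 0.55, adjusted p = 0.0109), on the way to a daily mean of 288 CPM at ZT20.

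**Figure D2:**
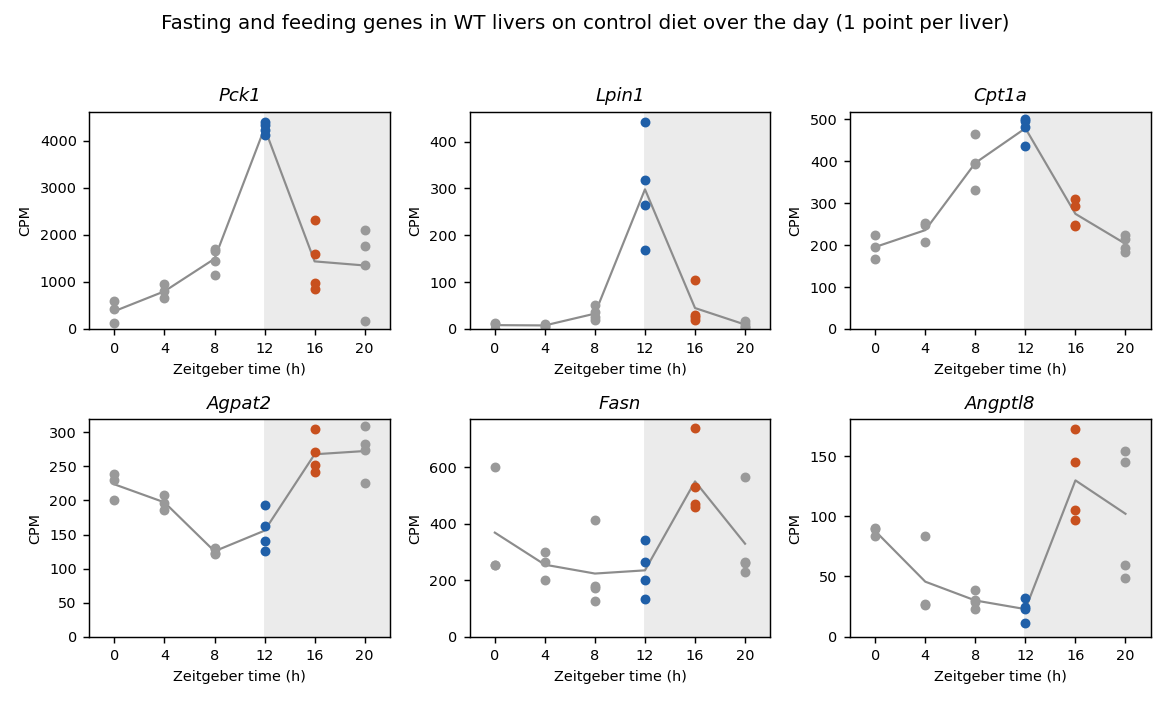
CPM of 6 genes of glucose and fat metabolism (vertical axis) against Zeitgeber time in hours (horizontal axis), with a point for each WT control-diet liver and a line through the means, ZT12 in blue, ZT16 in orange and the dark phase shaded grey. *Pck1*, *Lpin1* and *Cpt1a* were lower in all 4 ZT16 livers than in the 4 ZT12 livers, while *Agpat2*, *Fasn* and *Angptl8* were higher. *Angptl8* was picked by a rule that asks for no overlap.

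Several sterol genes rose. Of 25 genes of cholesterol synthesis and uptake, 7 were called, each higher (5 without ZT16 replicate 2), beside 6.85% called higher over all genes, with a median of 0.218. *Mvd*, a decarboxylase of the mevalonate pathway, had 9.85, 8.77, 6.9 and 11.2 CPM at ZT12 and 23.2, 15.6, 28.6 and 29.5 CPM at ZT16 (log2 fold change 1.4 ± 0.22, adjusted p = 0.00531). *Insig1*, which holds the SREBP proteins in the endoplasmic reticulum, had 415, 283, 237 and 282 CPM at ZT12 and 629, 669, 693 and 797 CPM at ZT16 (log2 fold change 1.2 ± 0.16, adjusted p = 0.00328). *Insig2*, its relative, had 54.9, 63.5, 46 and 34.6 CPM at ZT12 and 138, 85.5, 96.2 and 99.4 CPM at ZT16 (log2 fold change 1.08 ± 0.2, adjusted p = 0.0103). The ZT16 livers were above the ZT12 livers without overlap for all of these. *Lss*, which forms lanosterol, rose by less (log2 fold change 0.57 ± 0.076, adjusted p = 0.00299). So did *Srebf2*, which encodes the factor SREBP2 (log2 fold change 0.38 ± 0.068, adjusted p = 0.00871). *Sc5d*, a late desaturase of the pathway (log2 fold change 0.49 ± 0.13, adjusted p = 0.0384), lost its call without any library other than ZT12 replicate 4 and ZT16 replicates 1 and 3 (adjusted p from 0.0787 to 0.102).

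A few genes of bile acid handling and sterol export fell. Of 21 genes of bile acid synthesis and transport, 4 were called, each lower (5 without ZT16 replicate 2, which adds *Abcc2*), beside 6.6% called lower over all genes, with a median of -0.039. *Abcg5* had 85.5, 120.3, 93.6 and 109 CPM at ZT12 and 49.8, 58.6, 47.5 and 46.8 CPM at ZT16 (log2 fold change -1.01 ± 0.12, adjusted p = 0.00201). *Abcg8*, its partner in the transporter that moves cholesterol into bile, had 119.6, 147, 122 and 131 CPM at ZT12 and 58.5, 76.5, 42.6 and 40.3 CPM at ZT16 (log2 fold change -1.25 ± 0.19, adjusted p = 0.00467). The ZT12 livers were all above the ZT16 livers for both genes. *Amacr*, a racemase of bile acid side chains, also fell (log2 fold change -0.37 ± 0.06, adjusted p = 0.00629), as did the uptake carrier *Slco1b2*, whose call was lost without ZT12 replicate 2 or ZT16 replicate 4 (adjusted p from 0.0515 to 0.0638). *Cyp7a1*, the rate-limiting enzyme of bile acid synthesis, had 221, 77.5, 72.1 and 292 CPM at ZT12 and 207, 227, 189.5 and 216 CPM at ZT16 (log2 fold change 0.34 ± 0.42, adjusted p = 0.631). Its ZT12 livers were split, replicates 1 and 4 high and replicates 2 and 3 low, around the narrower ZT16 values, and it was not called.

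Of 32 genes of fatty acid oxidation, ketogenesis and PPARα targets, 3 were called, each lower (2 without ZT16 replicate 2), with a median of -0.058. Of all genes tested 6.6% were called lower and 13.4% in either direction, so this count is not a result about the list. *Cpt1a*, the carnitine transferase that admits fatty acids to mitochondria, had 502, 481, 438 and 496 CPM at ZT12 and 294, 311, 248 and 245 CPM at ZT16 (log2 fold change -0.8 ± 0.092, adjusted p = 0.00197). Its times did not overlap. *Angptl4*, a lipase inhibitor of the fasted state, had 59.8 to 116 CPM at ZT12 and 39.6 to 49.6 CPM at ZT16 (log2 fold change -0.87 ± 0.2, adjusted p = 0.0232) and lost its call without any library other than ZT12 replicates 1, 2 and 3 (adjusted p from 0.0513 to 0.064), and *Bdh1*, which interconverts ketone bodies (log2 fold change -0.44 ± 0.099, adjusted p = 0.0207), without ZT12 replicates 2 or 3 or ZT16 replicate 4 (adjusted p from 0.0532 to 0.0645).

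Of 17 genes tested in the list of the glucocorticoid receptor and its known targets, 10 were not called, 1 was called higher and 6 lower (1 and 5 without ZT16 replicate 2), with a median of -0.464, and *Per1* and *Lpin1* above are among the lower ones. The receptor gene *Nr3c1* had 74.7 to 87 CPM at ZT12 and 74.2 to 116 CPM at ZT16 and was not called (log2 fold change 0.13 ± 0.13, adjusted p = 0.561). *Zbtb16*, a zinc finger repressor that glucocorticoids induce, had 39.9, 54.6, 65.9 and 50 CPM at ZT12 and 13.6, 27.7, 7.3 and 12.6 CPM at ZT16 (log2 fold change -1.78 ± 0.35, adjusted p = 0.0123). *Klf9*, another such transcription factor, had 102, 114, 119.7 and 137 CPM at ZT12 and 59.6, 73.7, 86.9 and 60.7 CPM at ZT16 (log2 fold change -0.75 ± 0.14, adjusted p = 0.00989). Every ZT16 liver was below every ZT12 liver for both. *Tdo2*, which opens tryptophan breakdown, fell (log2 fold change -0.52 ± 0.095, adjusted p = 0.00958). *Errfi1*, an inhibitor of the EGF receptor (log2 fold change -0.46 ± 0.13, adjusted p = 0.0471), lost its call without any library other than ZT16 replicate 3 (adjusted p from 0.0549 to 0.11). *Fkbp5*, a chaperone of the receptor, had 62, 64.1, 50.7 and 108 CPM at ZT12 and 52, 49.3, 52.9 and 52.2 CPM at ZT16 and was not called (log2 fold change -0.46 ± 0.2, adjusted p = 0.163). For *Fkbp5* the ZT12 livers spread widely, with replicate 4 highest, while the ZT16 livers were nearly equal. *Tsc22d3*, the leucine zipper GILZ, had 146, 106, 73.6 and 73.5 CPM at ZT12 and 163, 141, 138 and 144 CPM at ZT16 and was not called either (log2 fold change 0.56 ± 0.21, adjusted p = 0.109), except by DESeq2 (adjusted p = 0.0416) and without ZT12 replicate 1 (adjusted p = 0.0123). The target that rose was *Cdkn1a*, an inhibitor of the cell cycle, at 0.622 to 1.57 CPM at ZT12 and 2.58 to 5.32 CPM at ZT16 (log2 fold change 1.87 ± 0.32, adjusted p = 0.00803).

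Chaperone genes had the largest share of calls among the pathway lists, nearly all of them higher. In the cytosol and nucleus these proteins fold and refold other proteins under the factor HSF1, which heat and protein load activate, and in the endoplasmic reticulum a separate set is induced when secretory proteins accumulate. Of 21 heat shock proteins and cochaperones tested, 14 were called higher and 1 lower (13 and 1 without ZT16 replicate 2), with a median of 0.835. *Hsp90aa1*, the inducible HSP90, had 112, 103, 111 and 100.5 CPM at ZT12 and 339.9, 309.8, 415 and 420.3 CPM at ZT16 (log2 fold change 1.8 ± 0.11, adjusted p = 0.000366). Its constitutive relative *Hsp90ab1* had 608, 613, 628 and 596 CPM at ZT12 and 999, 865, 1108 and 1064 CPM at ZT16 (log2 fold change 0.72 ± 0.081, adjusted p = 0.00186). Both were higher in every ZT16 liver, and the daily mean of *Hsp90aa1* was highest at ZT16, at 371 CPM, with 250.2 CPM at ZT20 and 82.6 CPM at ZT8.

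The HSP70 genes looked at below rose as well, apart from *Hspa1a*, which was not called. *Hspa8*, the constitutive HSP70, had 761, 1082, 1046 and 1096 CPM at ZT12 and 1806, 1807, 2344 and 2334 CPM at ZT16 (log2 fold change 1.06 ± 0.14, adjusted p = 0.00315), with ZT12 replicate 1 below the other ZT12 livers. *Hspa1b*, an inducible HSP70, had 13.4, 12.6, 18.8 and 12 CPM at ZT12 and 77.2, 28.1, 38 and 40.3 CPM at ZT16 (log2 fold change 1.69 ± 0.3, adjusted p = 0.00916), highest in ZT16 replicate 1. It has a near-identical copy, *Hspa1a*, so that the split of reads between the copies is uncertain. *Hspa1a* itself had 0.311 to 1.88 CPM at ZT12 and 1.62 to 4.06 CPM at ZT16, with overlapping times. *Hsph1*, a nucleotide exchange factor of HSP70, had 18.8, 20, 14 and 17.9 CPM at ZT12 and 34.9, 41.3, 43.4 and 35.6 CPM at ZT16 (log2 fold change 1.14 ± 0.12, adjusted p = 0.00168). Its call was lost in the fit of all control-diet libraries (adjusted p = 0.279). At other times *Hsph1* was far less steady, with 0, 0 and 0 CPM at ZT0 and 18.7, 3.55 and 0 CPM at ZT4. The cause of that spread was not tested. *Hspb1*, a small heat shock protein, had 9.11, 7.06, 14.1 and 8.16 CPM at ZT12 and 22.1, 20.8, 32.8 and 46.2 CPM at ZT16 (log2 fold change 1.66 ± 0.3, adjusted p = 0.00952). *Chordc1*, a partner of HSP90, had 25.5, 29.7, 27 and 23.7 CPM at ZT12 and 48.1, 42.8, 48 and 52.7 CPM at ZT16 (log2 fold change 0.86 ± 0.09, adjusted p = 0.00157). Apart from *Hspa1a*, no ZT16 liver overlapped with a ZT12 liver in these genes. The other genes called higher were *Hspa4*, *Hspa4l*, *Dnaja1*, *Ahsa1*, *Bag3*, *Stip1* and *Fkbp4*, and the lower one was the cochaperone *Dnajb6* (log2 fold change -0.29 ± 0.074, adjusted p = 0.0323), which lost its call without any library other than ZT12 replicates 1 and 3 and ZT16 replicate 2 (adjusted p from 0.0646 to 0.0908). *Cirbp*, an RNA-binding protein gene that is induced by cooling, moved the other way, at 23.9, 18.8, 21 and 24.6 CPM at ZT12 and 16.1, 15.5, 16.8 and 13 CPM at ZT16 (log2 fold change -0.52 ± 0.12, adjusted p = 0.0192), with all ZT16 livers below all ZT12 livers. The *Cirbp* call was lost in the fit of all control-diet libraries. *Rbm3*, the other cold-inducible gene looked at, had 47.6 to 74.1 CPM at ZT12 and 40.8 to 48.2 CPM at ZT16 and was not called (log2 fold change -0.38 ± 0.14, adjusted p = 0.103).

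Chaperones of the endoplasmic reticulum rose at the same step. Of 24 genes of its unfolded protein response, 15 were called, each higher (14 higher and *Ppp1r15a* lower without ZT16 replicate 2), with a median of 0.490. *Hspa5*, the reticulum's HSP70 known as BiP, had 583, 639, 445 and 465 CPM at ZT12 and 1169, 875, 1229 and 1206 CPM at ZT16 (log2 fold change 1.07 ± 0.15, adjusted p = 0.00334). *Hyou1*, its exchange factor, had 155, 188, 133 and 111 CPM at ZT12 and 329, 247, 362 and 348 CPM at ZT16 (log2 fold change 1.13 ± 0.17, adjusted p = 0.00484). Replicate 2 was the lowest ZT16 liver for both, still above every ZT12 liver. *Creld2* had 22.5, 26.2, 24.1 and 16.5 CPM at ZT12 and 78.5, 47.3, 115 and 74.4 CPM at ZT16 (log2 fold change 1.82 ± 0.26, adjusted p = 0.00356). *Sdf2l1* had 12.1, 10.8, 15.3 and 6.76 CPM at ZT12 and 32.5, 19.4, 42 and 45.7 CPM at ZT16 (log2 fold change 1.64 ± 0.3, adjusted p = 0.00996). *Manf*, a secreted protein of the same response, had 70.9, 71.7, 53.9 and 53 CPM at ZT12 and 145, 104, 149.7 and 144 CPM at ZT16 (log2 fold change 1.12 ± 0.15, adjusted p = 0.00297). Again replicate 2 was lowest among the ZT16 livers, and the times did not overlap.

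Genes of quality control and lectin chaperones of the reticulum rose too. *Syvn1*, the ubiquitin ligase of the degradation pathway, had 78.8, 91.3, 85 and 68.8 CPM at ZT12 and 182, 122, 170.5 and 181 CPM at ZT16 (log2 fold change 1.02 ± 0.14, adjusted p = 0.00317). *Calr*, a lectin chaperone, had 380.3 to 480.0 CPM at ZT12 and 584 to 716 CPM at ZT16 (log2 fold change 0.56 ± 0.094, adjusted p = 0.00726). *Dnajc3*, a cochaperone of BiP, had 196 to 236 CPM at ZT12 and 280.0 to 319.7 CPM at ZT16 (log2 fold change 0.49 ± 0.074, adjusted p = 0.00458). *Hsp90b1*, the reticulum's HSP90, rose too (log2 fold change 0.49 ± 0.11, adjusted p = 0.0182), while *Canx* (log2 fold change 0.29 ± 0.07, adjusted p = 0.0298) lost its call without any library other than ZT12 replicate 2 (adjusted p from 0.0574 to 0.0856). The remaining genes called higher were *Pdia3*, *Pdia4*, *Dnajb11*, *Sel1l* and *Edem1*. The regulators looked at were not called by edgeR. *Xbp1* had 199.9 to 270.4 CPM at ZT12 and 167 to 333 CPM at ZT16 (log2 fold change -0.074 ± 0.21, adjusted p = 0.852). *Atf4* had 73.9 to 96.7 CPM at ZT12 and 93.6 to 122 CPM at ZT16 (log2 fold change 0.35 ± 0.11, adjusted p = 0.0613). *Ddit3*, which encodes CHOP, had 4.69 to 6.2 CPM at ZT12 and 5.83 to 9.8 CPM at ZT16 (log2 fold change 0.59 ± 0.17, adjusted p = 0.0544). DESeq2 called *Atf4* (adjusted p = 0.0223) and *Ddit3* (adjusted p = 0.035), and *Atf4* was called with the replicate block as well (adjusted p = 0.0262).

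**Figure D3:**
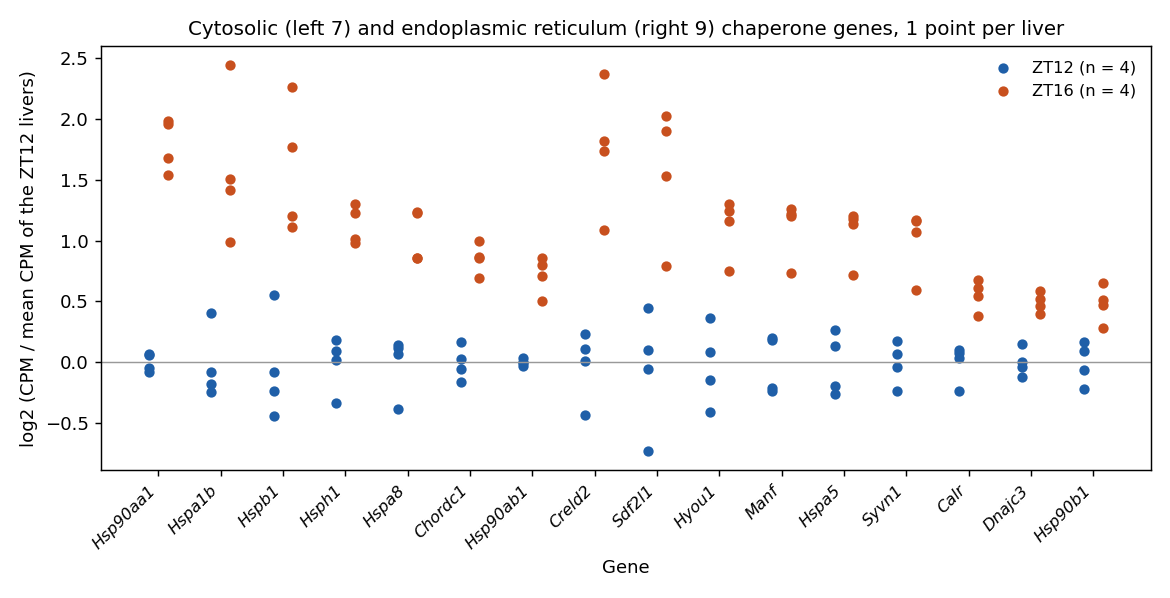
Log2 ratio of CPM to the ZT12 mean (vertical axis) for 7 chaperone genes of the cytosol and 9 of the endoplasmic reticulum (horizontal axis), with a point for each of the 4 ZT12 livers in blue and the 4 ZT16 livers in orange. In each of these genes every ZT16 liver was above every ZT12 liver.

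The promoters of the chaperone genes are shown because these genes moved together. Those of the sterol and clock genes were searched too, though the clock genes moved in both directions and *Ciart*, also shown, fell. The search was for short motifs on both strands. The endoplasmic reticulum stress element, spelled CCAAT, then 9 bases of any kind, then CCACG, was chosen for the search after the data were seen. It occurred in 39 of 32851 promoter windows of 300 bases around a transcription start (0.119%), in those of 37 of all 27025 genes (0.137%) and in those of 9 of 21 unfolded protein response genes with an entry (42.9%), among them 7 of the 13 called higher (*Hspa5*, *Hsp90b1*, *Calr*, *Canx*, *Creld2*, *Dnajc3* and *Syvn1*), while *Manf* and *Hyou1*, also called higher, have no entry. The heat shock element, spelled GAA, any 2 bases, TTC, any 2 bases and GAA, occurred in 198 windows (0.603%), in those of 0.662% of all genes and in those of 5 of 16 heat shock genes with an entry (31.2%), among them 2 of the 11 called higher (*Hsph1* and *Chordc1*). The other holders were *Hspd1* and *Hspe1*, which were not called, and *Dnajb6*, which was called lower. *Hspa8*, *Hsp90aa1* and *Hsp90ab1*, also called higher, have no entry. The shorter form of the heat shock element, GAA, any 2 bases and TTC, which the longer one contains, occurred in 2582 windows (7.86%), in those of 9.04% of all genes and in those of 11 of the 16 genes (68.8%), among them 7 of the 11. The sterol element, spelled TCAC, any base and CCAC, occurred in 408 windows (1.24%), in those of 1.44% of all genes and in that of 1 of 17 sterol genes with an entry (5.88%, *Hmgcs1*, which was not called), and in 0 of the 6 called higher. The clock's E-box CACGTG occurred in 2349 windows (7.15%), in those of 8.09% of all genes and in those of 5 of 17 clock genes with an entry (29.4%: *Per1*, *Cry1*, *Tef*, *Bhlhe41* and *Ciart*), among them 1 of the 3 called higher (*Cry1*). Of the others, *Per1*, *Tef* and *Ciart* were among the 7 clock genes called lower. A match is a description of the letters and not of a site that was measured. Each motif was looked for in the list of its own response, so the shares describe the lists and test nothing about the change between the times. The windows below are RefSeq sequences on build GRCm38.p6 (the assembly that mm10 stands for), written in the direction of transcription with each match in capitals. *Hspa5* (chr2:34771840-34772139 on the plus strand), *Creld2* (chr15:88819396-88819695 on the plus strand) and *Syvn1* (chr19:6046326-6046625 on the plus strand) hold the stress element, *Hsph1* (chr5:149636287-149636586 on the minus strand) the heat shock element and *Ciart* (chr3:95882179-95882478 on the minus strand) 3 E-boxes.
Hspa5: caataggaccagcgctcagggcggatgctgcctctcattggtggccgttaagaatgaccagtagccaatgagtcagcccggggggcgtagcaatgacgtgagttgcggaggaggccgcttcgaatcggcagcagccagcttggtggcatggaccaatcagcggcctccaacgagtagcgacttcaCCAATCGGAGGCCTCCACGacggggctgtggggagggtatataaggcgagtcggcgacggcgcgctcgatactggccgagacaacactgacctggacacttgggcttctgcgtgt
Creld2: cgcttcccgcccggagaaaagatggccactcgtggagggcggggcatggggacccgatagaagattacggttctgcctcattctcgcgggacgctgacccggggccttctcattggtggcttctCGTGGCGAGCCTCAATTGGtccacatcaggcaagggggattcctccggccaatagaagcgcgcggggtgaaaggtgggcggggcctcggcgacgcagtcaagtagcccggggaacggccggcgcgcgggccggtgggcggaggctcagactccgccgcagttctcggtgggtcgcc
Syvn1: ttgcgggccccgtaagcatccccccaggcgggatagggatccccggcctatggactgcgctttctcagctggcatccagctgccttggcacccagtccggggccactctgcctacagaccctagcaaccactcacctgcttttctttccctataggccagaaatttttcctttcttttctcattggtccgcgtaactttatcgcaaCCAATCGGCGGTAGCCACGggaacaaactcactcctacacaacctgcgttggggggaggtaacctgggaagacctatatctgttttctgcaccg
Hsph1: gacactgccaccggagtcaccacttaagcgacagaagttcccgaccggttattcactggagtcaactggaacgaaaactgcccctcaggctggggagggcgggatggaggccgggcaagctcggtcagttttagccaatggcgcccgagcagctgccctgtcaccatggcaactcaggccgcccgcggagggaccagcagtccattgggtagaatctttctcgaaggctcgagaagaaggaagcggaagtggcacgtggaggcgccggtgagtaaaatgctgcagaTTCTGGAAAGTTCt
Ciart: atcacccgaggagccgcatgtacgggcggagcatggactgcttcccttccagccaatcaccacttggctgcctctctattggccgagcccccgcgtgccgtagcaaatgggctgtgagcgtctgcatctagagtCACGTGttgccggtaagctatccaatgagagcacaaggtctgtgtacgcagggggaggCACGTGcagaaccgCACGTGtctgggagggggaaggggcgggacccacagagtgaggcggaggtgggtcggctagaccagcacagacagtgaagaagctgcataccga

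Of 34 autophagy genes and brakes of mTORC1 tested, 5 were called, each lower (4 without ZT16 replicate 2), beside 6.6% called lower and 13.4% called in all over all genes, with a median of -0.103. *Ulk1*, the kinase that starts autophagy, had 109.6, 119, 112 and 115 CPM at ZT12 and 53.2, 67.5, 49.4 and 45.6 CPM at ZT16 (log2 fold change -1.08 ± 0.11, adjusted p = 0.00154). *Gabarapl1*, which coats the autophagosome, had 293, 324, 308 and 323 CPM at ZT12 and 192, 189, 138 and 157 CPM at ZT16 (log2 fold change -0.89 ± 0.11, adjusted p = 0.00204). For both the ZT12 livers were close together and all above the ZT16 livers. *Atg14* (log2 fold change -0.7 ± 0.16, adjusted p = 0.0204), *Wipi1* (log2 fold change -0.59 ± 0.13, adjusted p = 0.0191) and *Wipi2* (log2 fold change -0.2 ± 0.057, adjusted p = 0.0481), which act in early autophagosome formation, lost their calls, *Atg14* without ZT16 replicates 1, 3 or 4 (adjusted p from 0.0543 to 0.0617), *Wipi1* without ZT12 replicate 3 or ZT16 replicates 1, 3 or 4 (adjusted p from 0.051 to 0.053) and *Wipi2* without any of the 8 libraries (adjusted p from 0.0514 to 0.125). *Map1lc3b*, which encodes LC3B, had 114 to 143 CPM at ZT12 and 100.2 to 119 CPM at ZT16 and was not called (log2 fold change -0.3 ± 0.087, adjusted p = 0.0532), though it was by DESeq2 (adjusted p = 0.0206) and in the fit of all control-diet libraries (adjusted p = 0.0042).

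Of 12 genes of amino acid stress and serine synthesis, 3 were called, each lower (also 3 without ZT16 replicate 2), beside 6.6% over all genes, with a median of 0.048, and *Trib3* above is 1 of them. *Chac1*, which degrades glutathione, had 3.13, 5.2, 6.59 and 7.07 CPM at ZT12 and 1.26, 0.757, 1.18 and 0.354 CPM at ZT16 (log2 fold change -2.62 ± 0.39, adjusted p = 0.00458). *Slc38a2*, a neutral amino acid carrier, had 148, 196, 196 and 247 CPM at ZT12 and 51.1, 83.4, 84.8 and 82.8 CPM at ZT16 (log2 fold change -1.38 ± 0.2, adjusted p = 0.0036). *Slc7a2*, the carrier for arginine and lysine outside that list, had 999, 1149, 1316 and 1224 CPM at ZT12 and 376, 550.0, 303 and 378 CPM at ZT16 (log2 fold change -1.54 ± 0.17, adjusted p = 0.00185). The times did not overlap for any of these carriers, which for *Slc7a2* was a condition of its choice. *Asns*, the asparagine synthetase, had 22.1 to 72.1 CPM at ZT12 and 25 to 45.1 CPM at ZT16 and was not called (log2 fold change -0.43 ± 0.33, adjusted p = 0.42). Amino acid catabolism and the urea cycle had 1 gene higher and 2 lower of 28 (the same numbers without ZT16 replicate 2), with a median of -0.053, a smaller share than the 13.4% called over all genes, and *Tdo2* above is 1 of the lower ones. There *Sds*, the serine dehydratase, had 454, 415, 393 and 496 CPM at ZT12 and 205, 218, 167 and 155 CPM at ZT16 (log2 fold change -1.24 ± 0.12, adjusted p = 0.00154). *Nags*, which makes the activator of the urea cycle, rose (log2 fold change 0.39 ± 0.085, adjusted p = 0.0184) but lost its call without ZT16 replicate 4 (adjusted p = 0.0568).

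Ribosome biogenesis had 7 genes higher and 1 lower of 34 tested (5 called without ZT16 replicate 2, each higher), with a median of 0.154. *Mybbp1a*, a nucleolar protein, had 52.7, 50.8, 51 and 53.2 CPM at ZT12 and 81.9, 75.3, 82 and 69.1 CPM at ZT16 (log2 fold change 0.57 ± 0.068, adjusted p = 0.00209). *Rrp12*, a factor for export of ribosome precursors, had 8.08 to 10.7 CPM at ZT12 and 14.8 to 20.4 CPM at ZT16 (log2 fold change 0.82 ± 0.14, adjusted p = 0.00805). *Heatr1*, which acts in ribosomal RNA transcription, had 9.57 to 11.4 CPM at ZT12 and 14.5 to 19.2 CPM at ZT16 (log2 fold change 0.69 ± 0.11, adjusted p = 0.00498). All ZT16 livers were above all ZT12 livers for these genes. *Bop1*, *Nop14*, *Nop16* and *Tsr1* were also called higher. The lower one was *Myc*, the transcription factor that drives growth, at 2.21, 46.8, 46.9 and 31.3 CPM at ZT12 and 2.57, 2.4, 10.1 and 2.34 CPM at ZT16 (log2 fold change -2.89 ± 0.81, adjusted p = 0.0478). Its ZT12 livers were split, with replicate 1 near 2 CPM and the others above 30, replicate 3 was the highest at ZT16, and the call was lost without any library other than ZT12 replicate 1 and ZT16 replicate 3 (adjusted p from 0.0819 to 0.12).

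*Cish*, a feedback inhibitor of growth hormone and cytokine signals, had 4.33, 53.1, 92.4 and 106 CPM at ZT12 and 3.65, 3.66, 38.6 and 3.4 CPM at ZT16 and was not called (log2 fold change -2.4 ± 1.02, adjusted p = 0.152), except without ZT16 replicate 3. *Socs3*, another, had 3.22, 23.3, 31.6 and 13.5 CPM at ZT12 and 3.94, 4.54, 6.12 and 3.68 CPM at ZT16 (log2 fold change -1.97 ± 0.55, adjusted p = 0.0468). As for *Myc*, ZT12 replicate 1 was low and ZT16 replicate 3 was the highest of its group, and *Socs3* lost its call without any library other than ZT12 replicate 1 (adjusted p from 0.0667 to 0.117). Of 12 genes of the growth hormone and IGF1 axis tested, *Socs3* was the 1 called, beside 6.6% called lower over all genes, with a median of -0.088 over the list. *Igf1* itself had 542 to 728 CPM at ZT12 and 460.4 to 735 CPM at ZT16 (log2 fold change -0.014 ± 0.15, adjusted p = 0.96).

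Immediate early genes had 2 higher and 2 lower of 11 tested (2 and 1 without ZT16 replicate 2), with a median of -0.285. *Junb*, a subunit of AP-1, had 21.7, 14.6, 22.7 and 20.8 CPM at ZT12 and 7.29, 13, 7.52 and 8.93 CPM at ZT16 (log2 fold change -1.11 ± 0.21, adjusted p = 0.0104). *Egr1*, a zinc finger factor, had 7.73, 1.04, 3.84 and 5.44 CPM at ZT12 and 1.2, 0.946, 1.55 and 0.425 CPM at ZT16 (log2 fold change -2.12 ± 0.58, adjusted p = 0.0436), where ZT12 replicate 2 overlapped with the ZT16 livers and the call was lost without any library other than ZT12 replicate 2 (adjusted p from 0.0655 to 0.104). *Ier5*, a regulator of HSF1, had 2.12, 2.38, 3.14 and 1.71 CPM at ZT12 and 4.9, 5.23, 3.98 and 4.82 CPM at ZT16 (log2 fold change 1.02 ± 0.21, adjusted p = 0.0152), higher in every ZT16 liver. *Atf3*, a stress-induced factor, had 0, 0.372, 0 and 0 CPM at ZT12 and 1.31, 0.82, 2.07 and 2.34 CPM at ZT16 (log2 fold change 3.92 ± 0.85, adjusted p = 0.0178), and lost its call without ZT16 replicate 4 (adjusted p = 0.0538). Its ZT12 livers were at 0 apart from replicate 2, so the size of this fold is not read. Of 21 acute phase and inflammation genes, *Socs3* and *Cebpb* were called, both lower (only *Cebpb* without ZT16 replicate 2), again beside 6.6% called lower over all genes, with a median of -0.089. *Cebpb*, a factor of the acute phase and of fasting, had 70.3, 44.6, 51.4 and 77.3 CPM at ZT12 and 27.7, 33.7, 39.2 and 26.3 CPM at ZT16 (log2 fold change -0.94 ± 0.2, adjusted p = 0.0156). Its values did not overlap between the times.

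Of 20 genes of drug metabolism tested, 2 were called, both lower (only *Por* without ZT16 replicate 2), beside 6.6% called lower and 13.4% called in all over all genes, with a median of -0.336. *Por*, the reductase that feeds electrons to the microsomal P450 enzymes, had 676, 597, 504 and 755 CPM at ZT12 and 389.7, 415, 408 and 372 CPM at ZT16 (log2 fold change -0.68 ± 0.12, adjusted p = 0.00805), with no overlap. *Cyp2e1* had 7806 to 8677 CPM at ZT12 and 6313 to 7434 CPM at ZT16 (log2 fold change -0.28 ± 0.07, adjusted p = 0.0299) and lost its call without any library other than ZT12 replicates 1 and 2 and ZT16 replicate 1 (adjusted p from 0.0621 to 0.0846). *Alas1*, the rate-limiting enzyme of heme synthesis, had 369, 677, 759 and 1460.5 CPM at ZT12 and 212, 150.2, 1054 and 246 CPM at ZT16 and was not called (log2 fold change -0.97 ± 0.65, adjusted p = 0.352). ZT16 replicate 3 was as high as the ZT12 livers for *Alas1*, while the other ZT16 livers were all below them. Without ZT16 replicate 3 *Alas1* was called. Of the genes looked for by name, *Npas2*, *Ppp1r3g*, *Pnpla3*, *Fgf21*, *Phgdh*, *Psat1* and *Fos* did not pass the filter for testing, and *Fgf21*, for example, had means of 0.293 CPM at ZT12 and 0.403 CPM at ZT16.

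**Figure D4:**
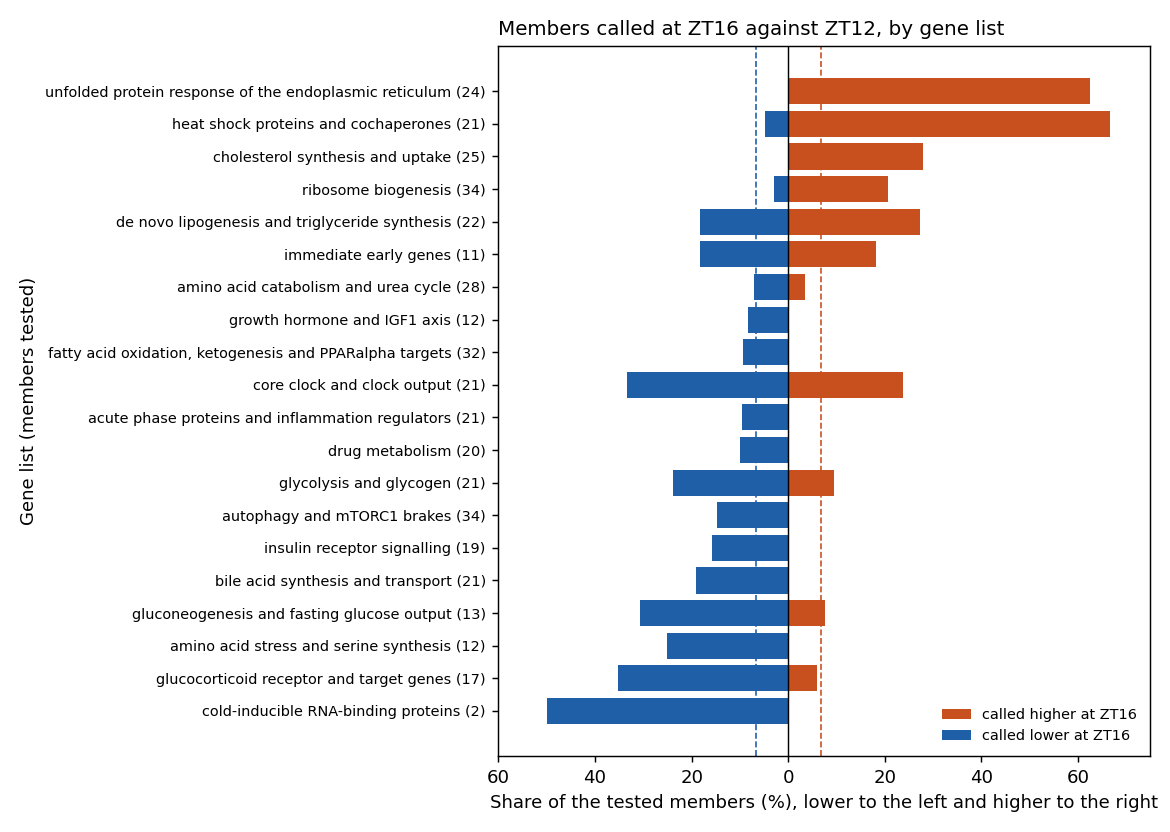
Percent of the tested genes of each list (horizontal axis) that were called higher or lower at ZT16, for each list of pathway genes (vertical axis, cell type markers not shown), with dashed lines at the shares of all genes tested, 6.85% higher and 6.6% lower. Heat shock proteins (14 of 21) and the unfolded protein response (15 of 24) had the largest shares called higher among these pathway lists.

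Outside the lists, *Chka*, the choline kinase that opens phosphatidylcholine synthesis, had 18, 13.2, 14.5 and 16.9 CPM at ZT12 and 69.8, 54.3, 54.8 and 68.6 CPM at ZT16 (log2 fold change 1.98 ± 0.13, adjusted p = 0.000366). *Actg1*, a cytoplasmic actin, had 71.1, 64.6, 78 and 69.5 CPM at ZT12 and 322, 192, 264 and 229.6 CPM at ZT16 (log2 fold change 1.83 ± 0.15, adjusted p = 0.000791). *Tubb2a*, a β-tubulin, had 16.7, 18.4, 12.3 and 7.93 CPM at ZT12 and 100.1, 66, 54.5 and 89 CPM at ZT16 (log2 fold change 2.49 ± 0.28, adjusted p = 0.00183). The ZT16 livers were several times higher and did not overlap with ZT12 in any of these. The genes of this paragraph were picked by a rule that asks for a large rise and no overlap, so neither is a result about them. *Ddc*, the aromatic amino acid decarboxylase, had 25 to 36.2 CPM at ZT12 and 74.9 to 152 CPM at ZT16 (log2 fold change 1.89 ± 0.21, adjusted p = 0.00191). *Acnat2* (log2 fold change 1.74 ± 0.23, adjusted p = 0.00302), *Dtx4* (log2 fold change 2.06 ± 0.24, adjusted p = 0.00201), *Lgalsl* (log2 fold change 1.94 ± 0.21, adjusted p = 0.00169) and *Lrfn3* (log2 fold change 2.53 ± 0.38, adjusted p = 0.00445) rose likewise in every ZT16 liver.

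The steepest falls were spread over many roles. The genes below were picked for a large fall and no overlap between the times, so neither is a result about them. *Pcnt*, which encodes the centrosomal protein pericentrin, had 7.64, 1.71, 6.43 and 6.92 CPM at ZT12 and no counts in any ZT16 liver (adjusted p = 0.00456). Against a floor of 3 counts per library it was at least 28.3-fold lower. Within other times, however, *Pcnt* was at 0 in some livers and not in others. It had 0, 2.52 and 2.66 CPM at ZT0 and 0, 0.964, 8.55 and 0 CPM at ZT20, so the size of its fall is not read. *Rgs16*, an inhibitor of G protein signals, had 115, 15, 20.5 and 47.6 CPM at ZT12 and 5.98, 2.78, 4.8 and 1.42 CPM at ZT16 (log2 fold change -3.71 ± 0.72, adjusted p = 0.0119). Its ZT12 livers differed widely, with replicate 1 highest, but all were above the ZT16 livers. *Gpcpd1*, a glycerophosphocholine phosphodiesterase, had 254, 181, 165 and 555 CPM at ZT12 and 75.5, 71.3, 72.8 and 47.8 CPM at ZT16 (log2 fold change -2.11 ± 0.38, adjusted p = 0.00943). *Fxr1*, an RNA-binding protein gene of the fragile X family, had 7.82, 4.53, 5.18 and 9.56 CPM at ZT12 and 0.359, 0.946, 0.221 and 0.567 CPM at ZT16 (log2 fold change -3.66 ± 0.42, adjusted p = 0.00197). *Nlrc5*, a transactivator of MHC class I genes (log2 fold change -2.03 ± 0.42, adjusted p = 0.0153), *Mical3* (log2 fold change -2.33 ± 0.47, adjusted p = 0.0139) and *Syt1*, a synaptotagmin (log2 fold change -1.66 ± 0.23, adjusted p = 0.00323), also fell without overlap. Whether the counting used the strand is not stated, so reads of overlapping genes on opposite strands may not have been told apart.

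Markers of cells other than hepatocytes moved with the time as well. The 6 endothelial genes had 4 called higher by edgeR (*Pecam1*, *Cdh5*, *Kdr* and *Clec4g*), 4 by DESeq2 and 5 at an unadjusted p under 0.05, and summed to 85.2, 72, 75.4 and 82.1 CPM at ZT12 and 103, 107, 103 and 104 CPM at ZT16, with *Clec4g* the most abundant, a ratio of means of 1.33. The 6 stellate cell genes had 3 called higher by edgeR (*Dcn*, *Des* and *Pdgfrb*), 6 by DESeq2 and 6 at an unadjusted p under 0.05, and summed to 114, 90.7, 80 and 113 CPM at ZT12 and 187, 131, 193 and 164 CPM at ZT16, with *Dcn* the most abundant, a ratio of 1.70. No ZT16 liver overlapped with a ZT12 liver in either sum. In bulk tissue, fewer cells of a type and less RNA per cell cannot be told apart. Over the day *Clec4g* was lowest at ZT12, with means of 41.8 CPM at ZT0, 46.7 CPM at ZT4, 22.8 CPM at ZT12 and 30.6 CPM at ZT16, and *Dcn* had 139 CPM at ZT0, 57.9 CPM at ZT12 and 100.4 CPM at ZT16. *Cdh5* lost its call without any library other than ZT12 replicate 1 and ZT16 replicates 1 and 4 (adjusted p from 0.0526 to 0.0605), *Des* without any of the 8 libraries (adjusted p from 0.0565 to 0.107) and *Pdgfrb* without ZT16 replicates 1, 2, 3 or 4 (adjusted p from 0.0508 to 0.0723). The part of these cells in the other results was not tested.

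Kupffer and myeloid markers had 0 of 8 called by edgeR, 0 by DESeq2 and 0 at an unadjusted p under 0.05, and summed to 89.3, 70.2, 61.7 and 93.1 CPM at ZT12 and 48.7, 80.4, 121 and 86.4 CPM at ZT16, with *Clec4f* the most abundant and overlapping times. Of 5 cholangiocyte markers 4 were tested, of which 2 were called higher by edgeR, 3 by DESeq2 and 3 at an unadjusted p under 0.05. *Krt19* had 0.46, 0.669, 0.549 and 0.389 CPM at ZT12 and 1.08, 1.39, 2.36 and 1.7 CPM at ZT16. *Krt7* had 0.552, 0.372, 0.549 and 0.777 CPM at ZT12 and 1.26, 1.45, 1.18 and 1.49 CPM at ZT16. *Epcam* was at 0 in all livers, and the sum, led by *Spp1*, was 30.6, 22.1, 31.9 and 51.8 CPM at ZT12 and 31.4, 32.8, 39.1 and 29.7 CPM at ZT16. The keratin genes rose without overlap, the sum did not separate the times, and *Krt7* lost its call without ZT12 replicates 2 or 3 or ZT16 replicates 2 or 4 (adjusted p from 0.053 to 0.0674). A list of 8 mesothelial markers, added after the data were seen and sharing *Krt19*, had 4 of 4 tested genes called higher, *Upk3b* the most abundant, and summed to 3.41, 2.68, 3.45 and 1.17 CPM at ZT12 and 10.7, 11.7, 13.8 and 7.79 CPM at ZT16 (a ratio of means of 4.11). Erythrocyte genes, with *Hbb-bs* the most abundant and near-identical copies among them, had 0 of 5 called by edgeR, by DESeq2 or at an unadjusted p under 0.05, and summed to 489, 430.2, 499 and 631 CPM at ZT12 and 709, 1518, 665 and 421 CPM at ZT16. Adipocyte markers had 0 of 1 called by edgeR, by DESeq2 or at an unadjusted p under 0.05, and summed to 3.77, 3.72, 2.82 and 3.81 CPM at ZT12 and 5.38, 7.06, 3.91 and 3.83 CPM at ZT16, with *Fabp4* the most abundant and *Plin1* at 0. No neutrophil or lymphocyte marker passed the filter for testing, and their summed means were 0.265 and 0.658 CPM at ZT12 and 0.147 and 0.963 CPM at ZT16 (*S100a9* and *Cd79a* most abundant, *Ly6g* at 0). The part of these cells in the results was not tested.

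The same time step was also measured in GR LKO livers. By library totals, *Nr3c1* was at 72.5 to 84.9 CPM in the ZT12 and 74.3 to 114 CPM in the ZT16 WT livers, and at 18.9 to 25.2 and 23.2 to 28.2 CPM in the GR LKO livers, lower in every GR LKO liver as the labels state. In GR LKO alone 1065 of 11753 genes were called (9.06%). Of the 1534 genes called in WT and tested there, 1472 (96%) had the same sign, against 71.9% of all genes tested in both. In GR LKO 615 of them (40.1%) were called, each in the same direction. The median change in the WT direction was 0.42 beside 0.543 in WT for these genes, which were chosen by their call in WT. Over all genes tested in both it was 0.133 beside 0.192. These shares are over genes, which are not independent of each other. The difference between the genotypes was tested as the interaction of time and genotype: of 12122 genes 0 (0%) were called by edgeR, 741 had an unadjusted p under 0.05, and DESeq2 called 20. The list medians were 0.949 for heat shock proteins, 0.770 for the unfolded protein response and -0.196 for the receptor's targets.

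Single genes in GR LKO give the values behind these counts. *Hsp90aa1* rose there (log2 fold change 2.23 ± 0.16, adjusted p = 0.000742). *Hspa5* rose (log2 fold change 1.58 ± 0.21, adjusted p = 0.00542), as did *Arntl* (log2 fold change 5.67 ± 0.89, adjusted p = 0.00973). *Pck1* fell (log2 fold change -1.7 ± 0.32, adjusted p = 0.018). *Lpin1* was not called (log2 fold change -0.5 ± 1.17, adjusted p = 0.851), nor was *Zbtb16* (log2 fold change -0.48 ± 0.28, adjusted p = 0.359). Whether a gene was called in WT and not in GR LKO is not a difference between them, and for each of these 6 genes the interaction was not called by edgeR.

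In WT mice on cal. res., 4705 of 11768 genes were called over the same hours (40%). Of the 1530 genes called on the control diet and tested there, 1373 (89.7%) had the same sign, against 70.5% of all genes tested in both. There 1066 of them (69.7%) were called in the same direction and 34 in the opposite one. Their median change in the control-diet direction was 0.67 beside 0.541, and that of all genes tested in both was 0.237 beside 0.191. The interaction of time and diet was called for 1814 of 12243 genes (14.8%), 865 with a more positive and 949 with a more negative change on cal. res. They include 436 of the 1540 genes called on the control diet. Of the 1764 with both changes at hand, 1054 had the same sign and were larger on cal. res., 19 had the same sign and were larger on the control diet, and 691 had opposite signs. The count was 1181 without cal. res. ZT16 replicate 1 and 1208 without replicate 3. The libraries of the diets were deposited in separate count files under separate runs of library names, so that a diet effect on the time step and any effect of the set on it cannot be told apart.

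Several fuel genes named above had larger steps on cal. res. For *Pck1* the change was -3.94 on cal. res. against -1.57 on the control diet (interaction -2.39 ± 0.48, adjusted p = 0.00646). For *Cpt1a* it was -2.07 against -0.8 (interaction -1.3 ± 0.18, adjusted p = 0.000906). *Fasn* changed by 3.56 against 1.23 (interaction 2.3 ± 0.44, adjusted p = 0.00474). *Angptl8* changed by 4.32 against 2.51 (interaction 1.79 ± 0.45, adjusted p = 0.0199). The direction was shared in these genes and the step was larger on cal. res. *Pdk4* and *Elovl3* rose on the control diet but had log2 fold changes of -0.62 and -4.07 on cal. res. (interactions -3 ± 0.49, adjusted p = 0.00212 and -6.96 ± 1.71, adjusted p = 0.0176). *Igfbp1*, not called on the control diet, had a log2 fold change of -5.8 on cal. res. (interaction -5.17 ± 0.91, adjusted p = 0.00308).

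Among the chaperones, some differed between the diets. *Hsp90aa1* changed by 2.5 on cal. res. against 1.8 (interaction 0.67 ± 0.18, adjusted p = 0.0252). *Manf* changed by 2.33 against 1.12 (interaction 1.18 ± 0.33, adjusted p = 0.0307), while for *Hspa5* the interaction was not called (0.56 ± 0.31, adjusted p = 0.242). The list medians on cal. res. were 0.940 for heat shock proteins and 0.884 for the unfolded protein response, and -1.48 for targets of the receptor and -0.904 for gluconeogenesis. In the clock, *Arntl* changed by 1.42 on cal. res. against 4.07 (interaction -2.67 ± 0.59, adjusted p = 0.011). *Cry1* had a log2 fold change of -0.06 against 1.28 (interaction -1.37 ± 0.2, adjusted p = 0.00119).

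The smallest p-values of the interaction belonged to genes outside the lists, apart from *Por*. *Srxn1*, which repairs oxidised peroxiredoxins, had log2 fold changes of 1.82 on cal. res. and -0.09 on the control diet (interaction 1.89 ± 0.13, adjusted p = 1.88e-05). *Hdhd3* changed by 3.57 and 1.02 (interaction 2.52 ± 0.19, adjusted p = 3.02e-05). *Por* changed by -2.58 and -0.68 (interaction -1.93 ± 0.17, adjusted p = 7.11e-05). *Fmo2*, a flavin monooxygenase, rose on the control diet (1.16, adjusted p = 0.00741) and fell on cal. res. (-2.15 ± 0.19, adjusted p = 0.000307), with an interaction of -3.34 ± 0.29, adjusted p = 7.11e-05. The others were *Nat8f2* (interaction 1.67 ± 0.14, adjusted p = 7.11e-05), *Ttc7* (1.23 ± 0.099, adjusted p = 5.69e-05), *Pter* (1.25 ± 0.11, adjusted p = 7.11e-05) and *Slc25a33*, a mitochondrial carrier of pyrimidine nucleotides (-1.87 ± 0.17, adjusted p = 7.11e-05).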

How the data were processed

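The authors deposited estimated counts per gene from bulk liver RNA-seq, and the submitters' processing notes name mm10, FastQC, MultiQC, Salmon and DESeq2. Rounding brought these to whole numbers, and 27244 of 27654 gene IDs were matched to symbols by GENCODE (410 without one held 0.116% of counts). Genes past filterByExpr (minimum count 10) were fitted with TMM scaling in edgeR 4.0.16 (quasi-likelihood F test, R 4.3.3, limma 3.58.1), each comparison on its own libraries, with Benjamini-Hochberg adjustment and a threshold of 0.05. DESeq2 1.42.0, other scalings and filters, a replicate block and leaving out each library were alternatives. CPM per liver were scaled over the 22 WT control-diet libraries, of which 12 pairs within a group of the 2 times were compared and 0 were identical. Named genes are those marked in the lists, the 15 largest rises and 15 largest falls among called genes with at least 5 CPM in a group, no overlap and an established symbol, and the 8 smallest p-values of each interaction with called genes; others were named after their values were seen, and some genes are not reported here. Members and lists were chosen with earlier results of these data known. A further 18 per-sample columns of other tables were not used here. Counting error limits low values, and 3 counts served as the floor.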

Additional observations from a re-analysis of the deposited data

Results flagged for a closer look

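Livers apart from their group were looked for with a rule that picks about 1 in 20 groups of independent, normally spread values. The named genes share the same livers and were partly picked by their values, so the count is not read against that rate. Of 304 groups of 4 livers looked at (each named gene and marker sum at each time), 27 held a liver far from the other 3. In CPM these were, at ZT12, *Clock* replicate 2 (2.9), *Pdk4* replicate 1 (4.79), *Pfkfb2* replicate 2 (17.7), *Hspa8* replicate 1 (761), *Atf3* replicate 2 (0.372), *Lgalsl* replicate 1 (9.48), *Pdgfrb* replicate 2 (3.34) and the adipocyte sum of replicate 3 (2.82). In ZT16 replicate 1 they were *Ugp2* (390), *Slc38a2* (51.1), *Map1lc3b* (119) and *Cyp2e1* (7430). In ZT16 replicate 2 they were *Nr1d2* (62.9), *Dbp* (12.4), *Hspa5* (875), *Manf* (104), *Pecam1* (12.6) and the sum of pancreas genes (771). In ZT16 replicate 3 they were *Ppp1r3c* (35), *Acacb* (188), *Lpin1* (104), *Tdo2* (911), *Myc* (10.1), *Cish* (38.6) and *Alas1* (1050), and in replicate 4 *Lrfn3* (15) and *Gpcpd1* (47.8).

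For the named genes below the step from ZT12 to ZT16 differed between the diets in WT mice, by the interaction test of edgeR over all genes, given as the log2 fold change on cal. res. minus that on the control diet. Among clock genes the differences were *Arntl* -2.67, *Clock* -3.37, *Cry1* -1.37, *Nr1d1* -2.07, *Nr1d2* -2.26, *Tef* -0.57 and *Nfil3* -1.75. For glucose, insulin and glycogen genes they were *Pck1* -2.39, *G6pc* -1.49, *Ppargc1a* -1.33, *Pdk4* -3, *Crtc2* -0.54, *Foxo1* -1.12, *Igfbp1* -5.17 and *Gys2* -0.76. In genes of fat synthesis they came to *Fasn* 2.3, *Acly* 0.81, *Elovl6* 1.4, *Srebf1* 1.86, *Fads2* -0.64, *Lpin2* -2.14, *Angptl8* 1.79 and *Elovl3* -6.96. Among sterol and bile acid genes the differences were *Mvd* 1.43, *Insig2* -1.05, *Lss* 0.46, *Sc5d* 0.95, *Abcg5* -1.59, *Abcg8* -2.01 and *Amacr* 0.47. For genes of fat oxidation they were *Cpt1a* -1.3 and *Angptl4* -2.4. In targets of the glucocorticoid receptor they came to *Fkbp5* -1.76, *Tsc22d3* -1.13, *Zbtb16* -2.17, *Klf9* -0.81, *Tdo2* -0.62, *Errfi1* -1.05 and *Cdkn1a* -2.06. Among chaperones the differences were *Hsp90aa1* 0.67, *Dnajb6* -0.52, *Manf* 1.18 and *Calr* 0.64. For genes of amino acids, ribosomes and autophagy they were *Slc38a2* -0.9, *Slc7a2* -1.31, *Mybbp1a* 0.37, *Sds* -1.49, *Ulk1* -0.75, *Atg14* -0.82 and *Map1lc3b* -0.8. In drug metabolism genes they came to *Por* -1.93 and *Cyp2e1* -0.84. Among markers of other cells the differences were *Clec4g* -0.79, *Dcn* -0.86, *Pdgfrb* -0.77 and *Upk3b* -2.31. For other named genes they were *Actg1* 0.86, *Srxn1* 1.89, *Hdhd3* 2.52, *Ttc7* 1.23, *Nat8f2* 1.67, *Pter* 1.25, *Fmo2* -3.34 and *Slc25a33* -1.87. The set of libraries coincides with the diet, and its part was not tested.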

How the results depend on the processing

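The count of 1540 called genes was 1923 with DESeq2, 1531 with RLE scaling, 1602 with library totals (1033 higher and 569 lower), 1195 with no filter, 1568 with a stricter filter and 2203 with all 42 control-diet libraries in 1 fit, where 1156 genes were lower. DESeq2 kept 1507 of the 1540 genes, RLE scaling 1519, library totals 1353 and no filter 1174. With replicate number as a block 998 genes were called (515 higher and 483 lower), and 929 of the 1540 kept their call, but livers with the same number were not alike (correlations of 0.089, 0.029, 0.054 and -0.032 between residuals of the times), so the numbers were not read as pairs. Leaving out 1 library gave 875 to 1384 called genes, 444 to 716 higher and 431 to 668 lower. The interaction of time and genotype had 0 genes called by edgeR (741 at an unadjusted p under 0.05), 20 by DESeq2 and 0 to 1 without a library, the 1 without WT ZT12 replicate 1. The interaction of time and diet had 2168 genes with DESeq2, 1818 with RLE scaling, 1376 with no filter, 1194 with a block within each diet and 1181 to 1785 without a library. Of 121 named genes called, 90 kept the call without each library in turn, and 31 lost it without at least 1. Of the same genes 14 lost the call in the fit of all control-diet libraries (adjusted p from 0.069 for *Cirbp* to 0.283 for *Cyp2e1*, *Per2* at 0.203, *Acly* at 0.0967 and *Hsph1* at 0.279), 27 with the replicate block (*Junb* at 0.051 to *Acacb* at 0.124), 11 with no filter (*Egr1* at 0.0526 to *Wipi2* at 0.0983), 7 with library totals (*Fads2* at 0.0579 to *Wipi2* at 0.0998), 1 with RLE scaling and 1 with the stricter filter (*Wipi2* at 0.0514 and 0.0561), and 0 with DESeq2. Of the named genes not called, 5 gained a call with DESeq2 (*Irs2* at 0.0486, *Tsc22d3* at 0.0416, *Ddit3* at 0.035, *Atf4* at 0.0223 and *Map1lc3b* at 0.0206), 4 with the replicate block (*Clock* at 0.0414, *Srebf1* at 0.0262, *Scd1* at 0.0364 and *Atf4* at 0.0262) and 3 in the fit of all control-diet libraries (*Clock* at 0.0282, *Rbm3* at 0.0449 and *Map1lc3b* at 0.0042). *Ddit3* gained one with library totals (0.0429) and with the stricter filter (0.0488). Leaving out 1 library gave calls to *Ppp1r3b* (0.0465) and *Tsc22d3* (0.0123) without ZT12 replicate 1, *Map1lc3b* without ZT12 replicate 2 (0.0341) or ZT16 replicate 1 (0.0393), *Atf4* without ZT12 replicate 4 (0.032), and *Ddit3* (0.0286), *Cish* (0.0339) and *Alas1* (0.0313) without ZT16 replicate 3. The sign turned only in genes that were not called: *G6pc* without ZT12 replicate 2 (-0.027), ZT12 replicate 3 (-0.13) or ZT16 replicate 2 (-0.13; over all libraries left out -0.13 to 0.20), *Nr3c1* without ZT16 replicate 3 (-0.0048 to 0.21), *Xbp1* without ZT16 replicate 1 (0.044) or 2 (0.0098; -0.33 to 0.044), and *Igf1* with library totals (0.030) or without ZT12 replicate 4 (0.085) or ZT16 replicate 1 (0.094; -0.12 to 0.094). The cause was not tested for any of these changes.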
